A study of Mus musculus with 9 samples.

Results

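Genes of iron storage, iron export, iron uptake and haem breakdown were followed across RAW264.7 macrophages treated to lower NFAT5 activity. The members were Ftl1, Fth1, Hmox1, Slc40a1, Tfrc, Slc11a1, Slc11a2, Ireb2, Aco1 and Fbxl5, chosen by symbol. Every probe that the platform annotation gives to one of these symbols was taken, which came to 24 probes for 10 genes, out of 45281 probes and 19057 genes with a symbol on the array. RAW264.7 is a mouse macrophage line. In the knock-down cells a stable short hairpin RNA was used to lower the transcript of Nfat5, a transcription factor known for the response to high salt. The decoy cells were transfected with oligonucleotides that hold the NFAT5 binding sequence and so compete for the protein, which the series' design text also calls a stable transfection. Control cells had no treatment. Each group had 3 Illumina bead arrays. All cells were grown in alpha-MEM with fetal bovine serum. A control line with another hairpin or another oligonucleotide is not among the groups used here. The labels state neither whether a treated line was 1 clone nor whether the arrays of a group were from separate cultures, so the p-values reflect only the spread among these arrays, part of which may be technical.

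A macrophage takes up iron through the transferrin receptor (Tfrc) or frees it from the haem of engulfed red cells with haem oxygenase (Hmox1). Iron leaves the endosome or phagosome through Slc11a2 and Slc11a1, is stored in ferritin, a shell of light (Ftl1) and heavy (Fth1) chains, and leaves the cell through ferroportin (Slc40a1). When iron is scarce, the iron regulatory proteins, encoded by Aco1 and Ireb2, bind RNA hairpins in these transcripts, block the translation of ferritin and ferroportin and protect the Tfrc transcript. When iron is plentiful, Fbxl5, part of a ubiquitin ligase, removes the Ireb2 protein.

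RefSeq promoter windows (GRCm38.p6) were at hand for 6 of the 10 members, Aco1, Fth1, Ftl1, Ireb2, Slc11a1 and Tfrc, with 8 windows between them. No window was at hand for Fbxl5, Hmox1, Slc11a2 and Slc40a1. The core of the NFAT5 binding sequence, TGGAAA, was searched on both strands (TTTCCA on the other) in the 250 bases before each annotated start, because the decoy carries that kind of sequence. Of the 8 windows 1 held it, that of Aco1, against 18.6% of 32851 windows of the same length. The Aco1 window, plus strand, chr4:40143015-40143264, is shown with the core in capitals, beginning 105 bases before the start.
Aco1: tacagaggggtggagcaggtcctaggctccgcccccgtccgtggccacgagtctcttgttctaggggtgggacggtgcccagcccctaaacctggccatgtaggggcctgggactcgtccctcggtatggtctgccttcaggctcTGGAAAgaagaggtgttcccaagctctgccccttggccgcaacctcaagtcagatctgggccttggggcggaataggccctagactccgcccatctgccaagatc
The 2 ferritin genes are shown, because Ftl1 had the largest change among the members and Fth1 is its partner, for the 100 bases before their starts, with the CCAAT box in capitals. The box, which binds the factor NF-Y, was searched as CCAAT on both strands (ATTGG on the other) and lay in 3 of the 8 member windows, those of Fth1, Ftl1 and Tfrc, against 33.8% of all windows. Ftl1 (minus strand, chr7:45459887-45459986) had it 2 times, beginning 78 and 34 bases before the start. Fth1 (plus strand, chr19:9982546-9982645) had it 1 time, 7 bases before. Each match is a run of letters and not a measured binding site.
Ftl1: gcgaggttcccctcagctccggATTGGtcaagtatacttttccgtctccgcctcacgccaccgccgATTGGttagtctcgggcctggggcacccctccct
Fth1: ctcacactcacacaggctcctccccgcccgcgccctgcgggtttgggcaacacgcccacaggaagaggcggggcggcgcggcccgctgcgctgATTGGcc

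The arrays differed in brightness, and this bears on every value given here. The upper quartile of raw signal was 209 to 257 units on the knock-down arrays, 214 to 237 on the decoy arrays and 319 to 336 on the control arrays. The share of probes above background was 21.5% to 27.1% for knock-down, 24.6% to 26.9% for decoy and 34.1% to 34.9% for control arrays. The part of these differences in the results was not tested. Levels are log2 signals after background correction and quantile normalization unless raw units are named. With arrays instead shifted to a common median, the median probe moved against control by -0.43 in log2 (knock-down) and -0.37 (decoy). The members' changes under median scaling are therefore also given relative to that shift, while those of other genes are not. The scalings did not part by the same amount on every probe. In knock-down cells the dim Ftl1 probe ILMN_2816707 was at -0.36 on both. Slc40a1 ILMN_2747923 was at 0.15 after quantile normalization and -1.12 after median scaling. A relative value therefore does not set a probe against others of like brightness. Nfat5 on its brightest probe had 1428, 1051 and 734 raw units in knock-down cells, 2083, 1731 and 1430 in decoy cells and 5049, 4591 and 4857 in control. The groups did not overlap, and the fall was 2.04-fold in knock-down cells (limma adjusted p = 2.49e-05) and 1.40-fold in decoy cells (adjusted p = 0.0112). Another Nfat5 probe was called higher in both (1.56-fold and 1.65-fold). A further probe, ILMN_2732123, above background on no array, was called higher in knock-down cells alone (0.45 in log2, limma adjusted p = 0.0414). Of 9 macrophage markers measured, 6 were above background on every knock-down and decoy array and 7 on every control array. Itgam was above background on no array and Ptprc on no treated array. Of the 9, 2 were called higher and 4 lower in each treated line. The summed normalized signal of the macrophage list was 80971 to 95983 units in knock-down cells, 87545 to 90709 in decoy cells and 61946 to 64543 in control, and its part in the results was not tested. No T-cell, B-cell, fibroblast, erythroid or hepatocyte marker was above background on all arrays of a group. Of 5 neutrophil markers 1, S100a8, was above background on all arrays, and of 5 epithelial markers 1, Krt8, on all control arrays. In cells pooled for RNA, fewer cells expressing a gene and less RNA per cell cannot be told apart.

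Of the 24 probes, 20 were bright enough to be tested, at least 1 for each of the 10 genes. Testing required a signal over the median of the array on 3 or more arrays, which 27062 probes had, and a probe was called at an adjusted p below 0.05 over all of these. The other 4, 3 of Fbxl5 and 1 of Slc40a1, were above background on no array and were not tested. In the knock-down against control, 14 of the 20 tested probes were called, 8 higher and 6 lower, against 46.5% of all probes called (22.6% higher and 23.9% lower). In the decoy against control 12 were called, 7 higher and 5 lower, against 34.3% of all probes (16.1% higher and 18.2% lower). Both comparisons use the same control arrays. The shares over all probes include probes near background, and shares over probes as bright as the members were not counted. The median change over the tested probes was -0.0040 in knock-down cells and 0.049 in decoy cells, against 0.012 and 0.011 over all probes. Because a gene's probes did not always move together, the results are given probe by probe.

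**Figure D1:**
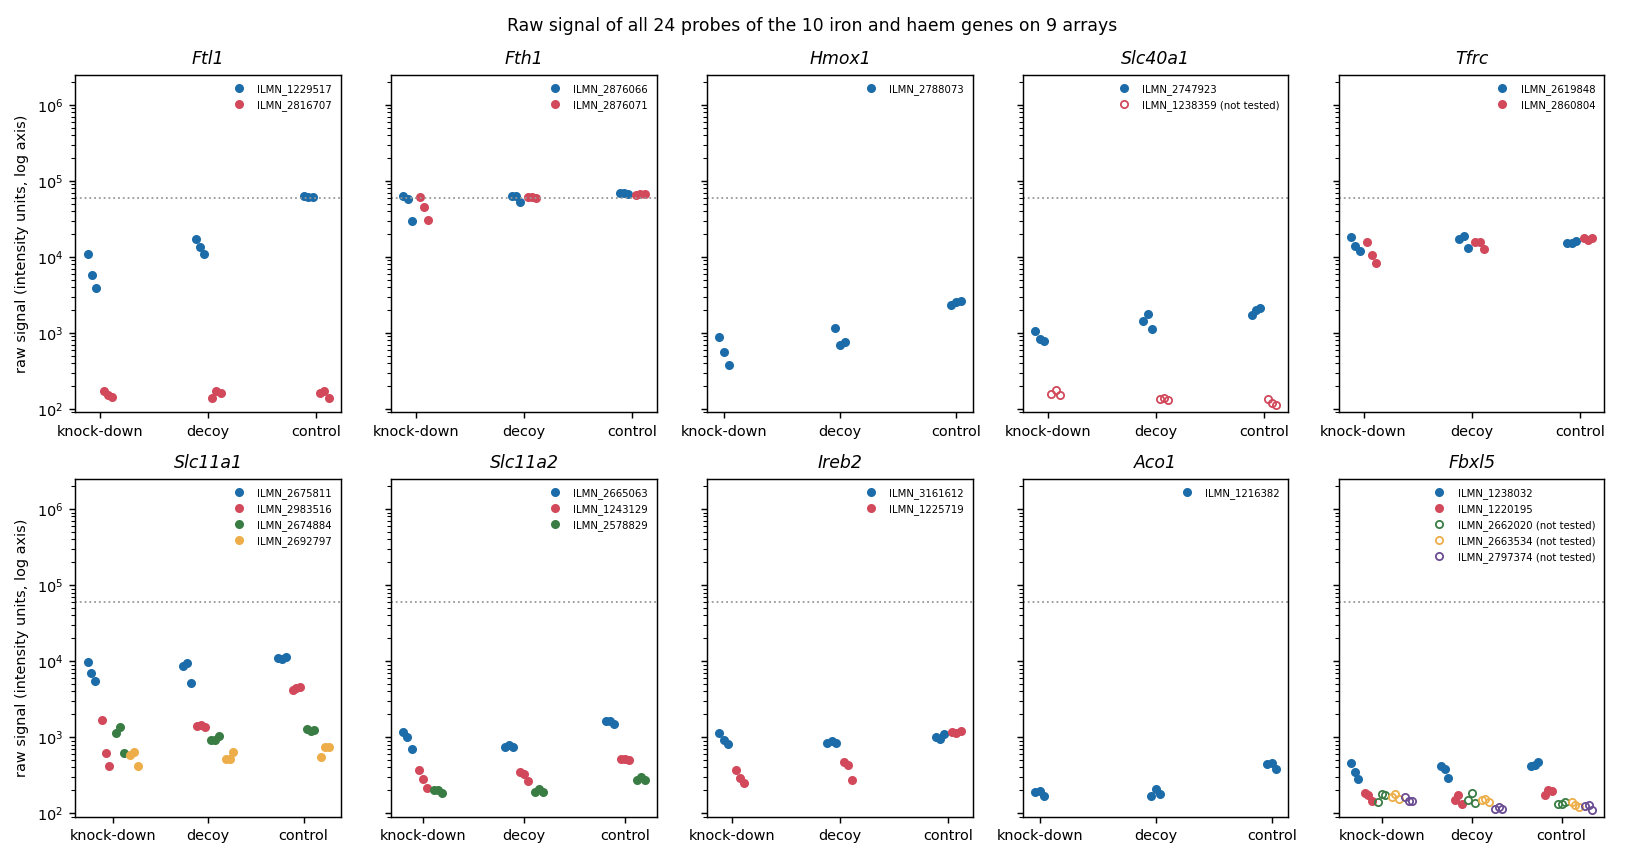
Raw signal (intensity units, log axis) of all 24 probes in the 3 knock-down, 3 decoy and 3 control arrays, 1 point per array and 1 colour per probe; open points are the 4 probes not tested and the dotted line marks 60000 units, where signals were taken as saturated. The Ftl1 probe with signal lies between 3916 and 16995 units on the 6 treated arrays and above the line on the 3 control arrays. Both Fth1 probes lie above the line on the control arrays. They lie between 29791 and 62367 units on the knock-down arrays and between 53451 and 62773 on the decoy arrays.

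Ferritin light chain gave the largest change among the members. Its probe ILMN_1229517 had 10834, 5794 and 3916 raw units in knock-down cells, 16995, 13614 and 10799 in decoy cells and 62330, 61084 and 61746 in control. All 6 treated arrays lay far below the control arrays, which were at the saturation limit of 60000 units. The normalized level was 13.04 ± 0.22 (log2, SD, n = 3) in knock-down cells, 13.95 ± 0.15 in decoy cells and 15.14 ± 0.077 in control. Ftl1 thus fell at least 4.29-fold in knock-down cells (log2 change -2.10, SE 0.15, adjusted p = 8.92e-08) and at least 2.29-fold in decoy cells (-1.20, SE 0.15, adjusted p = 3.68e-05), as saturated control signals understate a fall. Both calls were kept under all 22 alternative settings, with changes from -3.32 to -1.23 in knock-down cells and from -2.19 to -0.63 in decoy cells. The smaller limits came from averaging with the other probe, ILMN_2816707, which was above background on no array (140 to 174 units in all groups) and carries no level.

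Ferritin heavy chain showed no such fall after normalization, but its signal was at the top of the scale. Probe ILMN_2876071 had 61992, 45630 and 30350 raw units in knock-down cells, 60543, 60971 and 58984 in decoy cells and 65843, 67308 and 68014 in control. Probe ILMN_2876066 had 62367, 58168 and 29791 units in knock-down cells, 62773, 62290 and 53451 in decoy cells and 68329, 70132 and 67514 in control. On both probes every control array was saturated, as were 1 of 3 knock-down arrays and 2 of 3 decoy arrays, so the size of a difference from control is not known from either. After normalization the changes were 0.08 and -0.09 in knock-down cells (adjusted p = 0.651 and 0.603) and 0.26 and 0.03 in decoy cells (adjusted p = 0.167 and 0.886). The 95% intervals, -0.22 to 0.39 and -0.38 to 0.20 in knock-down cells, do not allow for saturation. With cyclic loess ILMN_2876071 was called higher in decoy cells (0.35, adjusted p = 0.0384). Under median scaling ILMN_2876071 was called lower in knock-down cells (-0.51, or -0.09 relative to the median probe, adjusted p = 0.0483). Knock-down replicate 3, the array with the lowest upper quartile, had the lowest raw signal on both probes.

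Haem oxygenase 1, the inducible enzyme that opens the haem ring and releases its iron, was lower in both treated lines. Its single probe, ILMN_2788073, had 879, 562 and 380 raw units in knock-down cells, 1168, 686 and 751 in decoy cells and 2306, 2581 and 2626 in control. No treated array reached the lowest control array. Normalized levels were 9.48 ± 0.20 in knock-down cells, 9.91 ± 0.36 in decoy cells and 10.46 ± 0.070 in control (SD, n = 3 each). Hmox1 fell 1.97-fold in knock-down cells (-0.98, SE 0.17, adjusted p = 0.000371), a call kept under all 22 alternatives. In the decoy it fell 1.47-fold (-0.55, SE 0.17, adjusted p = 0.0235). That call was lost without control replicate 1, 2 or 3 (adjusted p = 0.0527, 0.0715 and 0.0847) and without decoy replicate 2 (-0.36, adjusted p = 0.12).

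Ferroportin, the iron exporter, was not called lower in either line after quantile normalization. Slc40a1 probe ILMN_2747923 had 1062, 830 and 786 raw units in knock-down cells, 1457, 1760 and 1139 in decoy cells and 1727, 1978 and 2098 in control. Knock-down signals were all below control, and the decoy overlapped control. After normalization the level was 10.20 ± 0.30 in knock-down cells, 10.69 ± 0.20 in decoy cells and 10.05 ± 0.12 in control. It rose 1.56-fold in decoy cells (0.64, adjusted p = 0.00864) and was not called in knock-down cells (0.15, 95% interval -0.21 to 0.51, adjusted p = 0.472). The direction turned with the scaling. Under median scaling Slc40a1 was lower in knock-down cells (-1.12, or -0.70 relative to the median probe, adjusted p = 0.000424) and not called in decoy cells (-0.36, or 0.0073 relative to it, adjusted p = 0.123).

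The transferrin receptor, the main way in for iron bound to transferrin, was higher after quantile normalization on both of its probes. ILMN_2619848 had 18198, 13804 and 11856 raw units in knock-down cells, 17419, 18812 and 13189 in decoy cells and 15138, 15300 and 16142 in control, and the groups overlapped. ILMN_2860804 had 15783, 10472 and 8410 units in knock-down cells, 15903, 15623 and 12802 in decoy cells and 17857, 16693 and 17695 in control, with all treated arrays below control. After normalization the first rose 2.02-fold in knock-down cells (1.01, SE 0.14, adjusted p = 5.47e-05) and 2.01-fold in decoy cells (1.00, SE 0.14, adjusted p = 0.000113). The second rose 1.36-fold in knock-down cells (0.45, adjusted p = 0.0114) and 1.60-fold in decoy cells (0.68, adjusted p = 0.00113). Neither was called higher under median scaling, where the first was at -0.021 and 0.17 (0.41 and 0.53 relative to the median probe) and the second was called lower in knock-down cells (-0.56, or -0.13 relative, adjusted p = 0.0333) and not called in decoy cells (-0.15, or 0.22 relative). The rise of the second probe in knock-down cells was also lost with cyclic loess (adjusted p = 0.132) and without control replicate 2 (adjusted p = 0.0692).

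**Figure D2:**
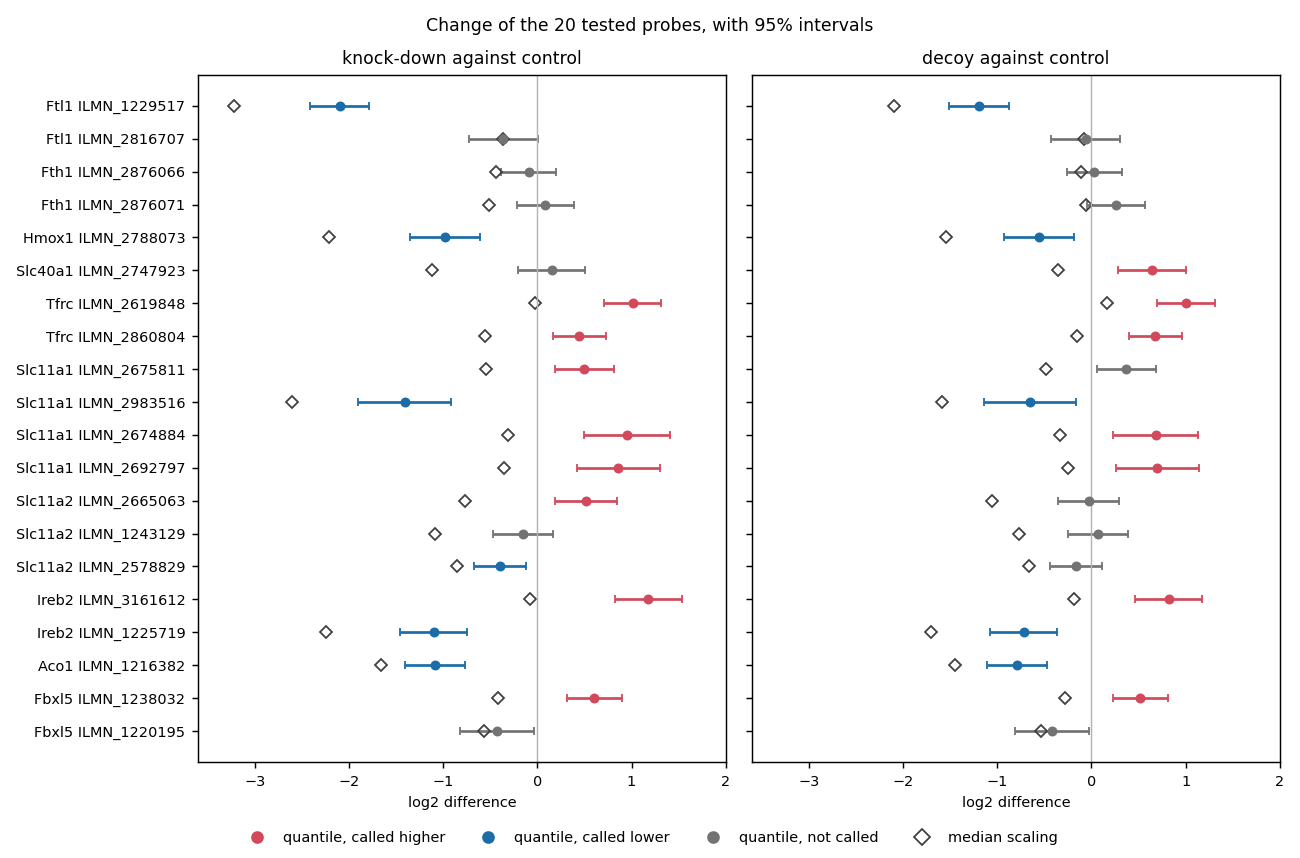
Log2 difference of the 20 tested probes in knock-down cells against control (left) and the decoy against control (right); filled points with bars are the estimates and 95% intervals after quantile normalization, coloured by call, and open diamonds are the estimates under median scaling. The points of Ftl1 ILMN_1229517, Hmox1, Slc11a1 ILMN_2983516, Ireb2 ILMN_1225719 and Aco1 lie below 0 under both scalings in both panels, whereas for every probe called higher the diamond lies left of the filled point, and none of these probes is called under median scaling as higher.

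Slc11a1, the phagosomal metal transporter known as Nramp1, was read by 4 tested probes that did not move together. ILMN_2983516 had 1687, 614 and 417 raw units in knock-down cells, 1397, 1453 and 1375 in decoy cells and 4141, 4416 and 4615 in control. It fell 2.66-fold in knock-down cells (-1.41, SE 0.23, adjusted p = 0.000185) and 1.57-fold in decoy cells (-0.65, SE 0.23, adjusted p = 0.0406). The fall in decoy cells was lost under 6 of 20 alternatives, among them the removal of any 1 control array (adjusted p = 0.0901, 0.0874 and 0.11) and of decoy replicate 1 or 2 (0.131 and 0.106). The brightest probe, ILMN_2675811, had 9733, 6960 and 5447 units in knock-down cells, 8561, 9350 and 5092 in decoy cells and 10919, 10827 and 11433 in control. It was called 1.41-fold higher in knock-down cells (adjusted p = 0.0121, and 0.0562 without control replicate 2, 0.0549 with cyclic loess and 0.17 with the mean of the gene's probes) and not called in decoy cells (0.37, adjusted p = 0.0647). In decoy cells it was called higher under 6 of 22 alternatives, with adjusted p of 0.00655 to 0.0484. The other 2 probes rose 1.93-fold (ILMN_2674884, adjusted p = 0.00206) and 1.81-fold (ILMN_2692797, adjusted p = 0.00344) in knock-down cells. In the decoy they rose 1.60-fold and 1.62-fold (adjusted p = 0.0222 and 0.0168), calls lost without decoy replicate 3 (0.0974 and 0.077), for the first also without control replicate 2 or 3 (0.0791 and 0.0605) and for the second without control replicate 1 (0.0863). Under median scaling the 3 rising probes were below 0 in both lines (-0.54 to -0.25, or -0.12 to 0.12 relative to the median probe) and none was called.

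Slc11a2, the divalent metal transporter DMT1, was lower in raw signal on all 3 of its probes, in both treated lines, and mixed after normalization. ILMN_2665063 had 1159, 1005 and 693 raw units in knock-down cells, 733, 788 and 735 in decoy cells and 1638, 1656 and 1501 in control. After normalization it was 1.43-fold higher in knock-down cells (0.52, adjusted p = 0.0131) and not called in decoy cells (-0.03, 95% interval -0.36 to 0.30, adjusted p = 0.897). Without control replicate 3 the call in knock-down cells was lost (adjusted p = 0.064), and under median scaling this probe was called lower in both lines (-0.77 and -1.06, or -0.34 and -0.69 relative to the median probe). ILMN_1243129 was not called in either line after quantile normalization (-0.15 and 0.07) and was called lower in both under median scaling (-1.09 and -0.77, or -0.66 and -0.40 relative). ILMN_2578829 was above background on the 3 control arrays (272 to 302 units) and on no treated array (187 to 211 units). It was called lower in knock-down cells (-0.40, adjusted p = 0.0203), a call that was lost without any 1 of the control arrays (adjusted p = 0.0621, 0.0823 and 0.06). Under median scaling it was called lower in both lines (-0.85 and -0.66, or -0.43 and -0.30 relative). The annotation ties the first probe to the gene's RefSeq transcript and the other 2 to cDNA clones.

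The probes of Ireb2, which encodes the iron regulatory protein that Fbxl5 removes, opposed each other. ILMN_1225719 had 369, 287 and 248 raw units in knock-down cells, 467, 436 and 272 in decoy cells and 1176, 1142 and 1213 in control. It fell 2.14-fold in knock-down cells (-1.10, SE 0.17, adjusted p = 9.42e-05) and 1.64-fold in decoy cells (-0.72, SE 0.17, adjusted p = 0.00416), and was called lower under all 20 alternatives that hold a value for it. ILMN_3161612 had 1120, 921 and 806 units in knock-down cells, 833, 889 and 852 in decoy cells and 993, 961 and 1101 in control. It rose 2.26-fold in knock-down cells (1.18, SE 0.17, adjusted p = 5.79e-05) and 1.76-fold in decoy cells (0.82, SE 0.17, adjusted p = 0.00185). Its raw signals overlapped control in knock-down cells and lay below control in decoy cells, and under median scaling it was at -0.08 and -0.18 (0.35 and 0.18 relative to the median probe), called in neither line. With the mean over both probes Ireb2 was not called (0.04 and 0.05, adjusted p = 0.804 and 0.761).

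Aco1 encodes the other iron regulatory protein, which is an aconitase when it carries an iron-sulphur cluster. Its promoter window, printed above, holds the NFAT5 core, a run of letters found in 18.6% of all windows. Its single probe, ILMN_1216382, had 190, 197 and 167 raw units in knock-down cells, 171, 206 and 179 in decoy cells and 441, 457 and 378 in control. It was above background on all control arrays and on no treated array. Aco1 was therefore at least 1.12-fold lower in knock-down cells (adjusted p = 4.35e-05) and at least 1.29-fold lower in decoy cells (adjusted p = 0.00104). The measured means were 6.88 ± 0.18 in knock-down cells, 7.18 ± 0.17 in decoy cells and 7.97 ± 0.12 in control (log2, SD, n = 3 each). The fall was called under all 22 alternatives in both comparisons.

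Fbxl5, whose protein senses iron and marks the Ireb2 protein for removal, had 1 probe with signal on all arrays. ILMN_1238032 had 459, 345 and 281 raw units in knock-down cells, 416, 388 and 293 in decoy cells and 416, 431 and 478 in control, and the groups overlapped. After normalization it was 1.52-fold higher in knock-down cells (0.60, SE 0.14, adjusted p = 0.00232) and 1.43-fold higher in decoy cells (0.52, SE 0.14, adjusted p = 0.00924). Under median scaling it was at -0.42 and -0.28 (0.010 and 0.082 relative to the median probe) and not called. The next probe, ILMN_1220195, was above background on 2 control arrays alone and not called (-0.43 and -0.41, adjusted p = 0.0676 and 0.0949), though under median scaling it was called lower in both lines (-0.56 and -0.54, or -0.13 and -0.17 relative to the median probe). The 3 untested probes had 112 to 186 units in all groups.

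In raw signal the 20 tested probes overlapped control or lay below it. The knock-down arrays lay below all control arrays on 13 of them and above all control arrays on 0, against 43.4% and 22.7% of all tested probes. The decoy arrays lay below on 15 and above on 0, against 52.5% and 14.9%. The background limit was 230 to 254 units on knock-down arrays, 214 to 229 on decoy arrays and 193 to 200 on control arrays. The untested probes of Slc40a1 and Fbxl5 were all higher in raw signal in knock-down cells and overlapped control in decoy cells. The part of background in these shares was not tested. Under median scaling 12 of the 20 tested probes were called lower and 0 higher in knock-down cells, against 48.6% and 8.29% of all probes. The same count was 9 lower and 0 higher in decoy cells, against 43.5% and 7.01%. Over all probes 56.9% were called in knock-down cells and 50.6% in decoy cells on that scale. None of the 8 and 7 rises given above was called higher under median scaling or without normalization. Of the called falls, all 6 in knock-down cells and all 5 in decoy cells were called lower under both scalings. Median scaling moved the median probe by -0.43 in knock-down cells and -0.37 in decoy cells, which favours keeping falls and losing rises. The share of falls kept or rises lost over all probes was not counted.

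A difference between 2 probes of a gene within an array is not changed by a factor common to the whole array. Background correction and quantile normalization can change it. It was taken in raw log2 signal, background included, for probes above background on all 9 arrays. Background weighs more on dim probes, such as ILMN_1225719 of Ireb2 (248 to 467 units on treated arrays). This measure was chosen after the data were seen. For Ireb2, ILMN_3161612 minus ILMN_1225719 was 1.60, 1.68 and 1.70 in knock-down cells, 0.83, 1.03 and 1.65 in decoy cells and -0.24, -0.25 and -0.14 in control. The groups did not overlap, and the shift against control was 1.87 in knock-down cells and 1.38 in decoy cells (exact permutation p = 0.1 each, the smallest that 3 arrays against 3 allow). For Slc11a1, ILMN_2675811 minus ILMN_2983516 was 2.53, 3.50 and 3.71 in knock-down cells, 2.62, 2.69 and 1.89 in decoy cells and 1.40, 1.29 and 1.31 in control. It shifted by 1.91 in knock-down cells and 1.06 in decoy cells (exact permutation p = 0.1 each). Among the 3 other probes of Slc11a1 the pairs shifted by -0.30 to -0.015 (exact permutation p = 0.3 to 1). The 2 Tfrc probes shifted by 0.53 in knock-down cells and 0.31 in decoy cells, without overlap (exact permutation p = 0.1 each). The 2 Fth1 probes, saturated on all control arrays, allow no such reading. Opposed calls on probes of a gene were common on these arrays: of 1500 genes with at least 2 called probes above background, 47.5% had both directions in knock-down cells, and of 999 genes 40.9% in decoy cells. Among the members the counts were 3 of 4 (Slc11a1, Slc11a2 and Ireb2) and 2 of 3 (Slc11a1 and Ireb2).

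**Figure D3:**
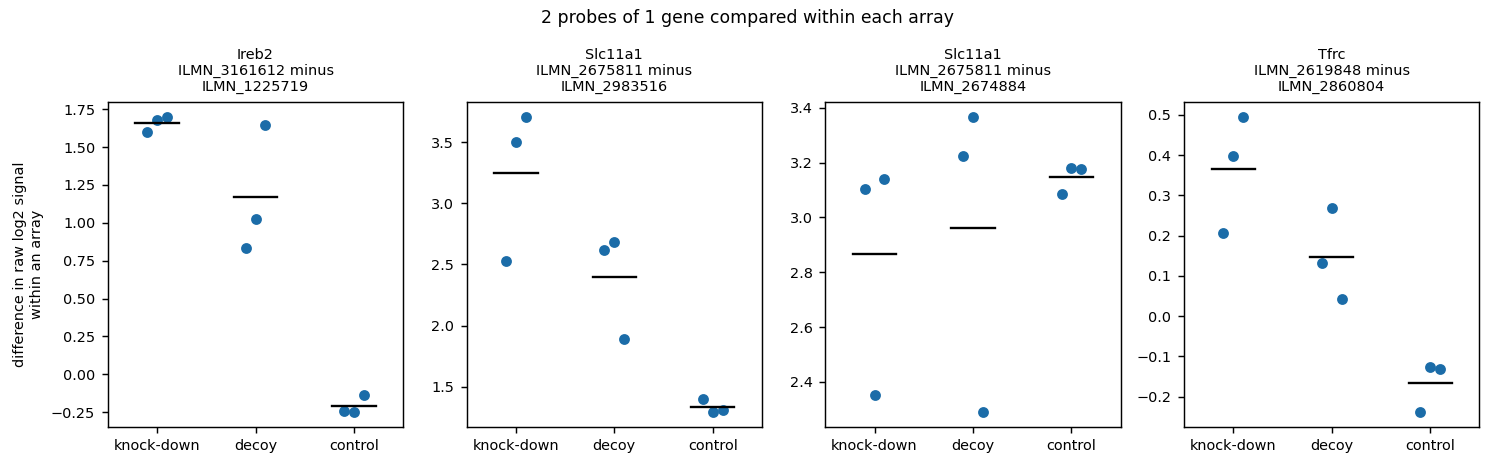
Difference in raw log2 signal between 2 probes of a gene within each array, for the 3 knock-down, 3 decoy and 3 control arrays (points) with the group mean (line); each panel has its own axis range. In Ireb2 and the first Slc11a1 pair every treated array lies above every control array, whereas the second Slc11a1 pair overlaps.

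Knock-down and decoy were then set against each other. Control levels do not enter this difference, but the control arrays shared in the normalization and in the estimate of spread. Of the 20 tested probes 1 was called, against 2.68% of all probes (1.06% higher and 1.62% lower). It was Ftl1 ILMN_1229517, which was 1.87-fold lower in knock-down than in decoy cells (-0.90, SE 0.15, adjusted p = 0.00437). With only these 2 groups fitted, 210 probes were called in place of 726, and the limma adjusted p of Ftl1 ILMN_1229517 was 0.028. The raw signals of these 2 groups overlapped (3916 to 10834 units in knock-down cells, 10799 to 16995 in decoy cells), and the call was lost under median scaling (-1.13, or -1.06 relative to the median probe, adjusted p = 0.233), where 0.181% of all probes were called (0.0517% higher and 0.129% lower). The next closest was Slc11a2 ILMN_2665063, higher in knock-down cells by 0.55 (adjusted p = 0.0738). Slc11a1 ILMN_2983516 was lower by 0.76 (adjusted p = 0.0937) and Slc40a1 ILMN_2747923 by 0.49 (95% interval -0.85 to -0.13, adjusted p = 0.135). For Hmox1 the difference was -0.43 (95% interval -0.80 to -0.055, adjusted p = 0.204).

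Other genes of iron and haem handling were taken from lists, each gene standing by its brightest tested probe. Over all 13716 genes counted this way, 47.9% were called in knock-down cells, 26.5% as higher and 21.4% as lower, and 34.8% in decoy cells, 18.1% as higher and 16.7% as lower. The 10 members counted this way had 5 higher and 3 lower in knock-down cells and 4 higher and 3 lower in decoy cells. Haem synthesis genes had 3 of 10 lower and 0 higher in knock-down cells and 2 lower and 0 higher in decoy cells, with a median change of -0.28 and 0.0054 against 0.076 and 0.044 over all genes. Cpox, an oxidase late in the pathway, fell at least 1.02-fold in knock-down cells (adjusted p = 0.00012) and at least 1.18-fold in decoy cells (adjusted p = 0.000607). Clpx, a mitochondrial unfoldase that acts on the first enzyme of the pathway, fell 2.18-fold and 1.77-fold, with another probe called higher in knock-down cells. Tmem14c, a mitochondrial porphyrin carrier, fell 1.56-fold in knock-down cells, and its other probes were called in both directions.

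Haem breakdown and transport genes had 1 of 8 higher and 1 lower in knock-down cells and 3 higher and 1 lower in decoy cells (medians 0.12 and 0.20). Pgrmc1, a haem-binding membrane protein, fell 2.54-fold in knock-down cells (adjusted p = 2.57e-05) and 1.96-fold in decoy cells (adjusted p = 0.000686). Blvrb, a biliverdin reductase, rose 1.81-fold and 1.51-fold, and Flvcr1, a haem exporter, rose 1.64-fold in decoy cells. These 3 rises were not called under median scaling.

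Iron chaperone and ferritin turnover genes had 2 of 9 higher and 1 lower in knock-down cells and 1 higher and 1 lower in decoy cells (medians 0.19 and -0.13). Ncoa4, the receptor that takes ferritin to the lysosome, rose 2.59-fold in knock-down cells (adjusted p = 8.13e-05) and 2.40-fold in decoy cells (adjusted p = 0.000297). Under median scaling Ncoa4 was called higher in decoy cells alone (0.32 in knock-down cells and 0.48 in decoy cells). Pcbp1, which hands iron to ferritin, fell 1.73-fold and 1.54-fold, under both scalings. Pcbp4, of the same protein family, rose 1.86-fold in knock-down cells and was not called there under median scaling.

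Iron-sulphur cluster genes had 2 of 20 higher and 4 lower in knock-down cells and 0 higher and 3 lower in decoy cells (medians 0.027 and 0.026). Nfu1, which carries clusters in mitochondria, fell at least 1.71-fold and at least 1.97-fold and was above background on no treated array. Ciao2b, of the cytosolic pathway, fell 1.61-fold and 1.56-fold, with another of its probes also called lower in both lines. Glrx5, a mitochondrial glutaredoxin, fell 1.54-fold in decoy cells. Hscb, a cochaperone of the scaffold, was lower in knock-down cells (adjusted p = 0.00825) with no fold given, as it was not above background there.

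Genes of iron uptake and movement in the cell had 2 of 15 higher and 2 lower in knock-down cells and 2 higher and 1 lower in decoy cells (medians 0.026 and -0.029). The mitochondrial iron importer genes Slc25a28 and Slc25a37 rose 2.14-fold and 1.42-fold in knock-down cells, and Slc25a28 by 0.58 in log2 in decoy cells. Neither rise was called under median scaling, where Slc25a37 was called lower (-0.77 in knock-down cells). Snx3, which returns the transferrin receptor to the surface, fell 1.41-fold in knock-down cells and by 0.38 in log2 in decoy cells, and was called lower under median scaling too. Lcn2, a siderophore-binding protein, was called higher in decoy cells on a probe above background in neither group, so no fold is given.

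Systemic iron genes had 1 of 8 higher and 3 lower in knock-down cells and 0 higher and 3 lower in decoy cells (medians -0.096 and -0.10). Bmpr2, a receptor in the control of hepcidin, fell 1.58-fold in knock-down cells and by 0.38 in log2 in decoy cells. Hfe, a partner of the transferrin receptor, fell 1.61-fold in decoy cells, with another probe called higher. Cp, the ferroxidase ceruloplasmin, was called lower in both lines on a probe above background in control alone, too dim there for a fold. Hamp2, a hepcidin gene, was called higher in knock-down cells on a probe above background in neither group. Of the genes listed for an iron-responsive element outside the members, 1 was tested, Cdc14a, and it was not called (-0.57 and -0.25, adjusted p = 0.0578 and 0.427).

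The transcription factors that act on ferritin and haem oxygenase genes had 4 of 8 higher and 2 lower in knock-down cells and 2 higher and 2 lower in decoy cells (medians 0.28 and 0.20). Nfe2l2, which encodes NRF2, an activator of Hmox1 and ferritin genes, rose 2.34-fold in knock-down cells (adjusted p = 0.00108) and 2.97-fold in decoy cells (adjusted p = 0.000275). Hif1a, of the response to low oxygen, rose 1.69-fold and 2.34-fold. Under median scaling both were called higher in decoy cells and not in knock-down cells. Nfe2l1, a relative of NRF2, fell 1.75-fold and 1.51-fold under both scalings. NRF2 targets outside iron had 1 of 11 higher and 4 lower in both the knock-down and the decoy (medians -0.43 and -0.28). Txn1, thioredoxin, fell 4.67-fold in knock-down cells (adjusted p = 3.21e-08) and 3.72-fold in decoy cells (adjusted p = 3.08e-07), and Tkt, transketolase, 2.85-fold and 1.75-fold. Prdx1, a peroxiredoxin, fell 2.52-fold in knock-down cells, with some arrays saturated, so that the fold is not exact. Slc7a11, the cystine transporter, rose 1.53-fold in decoy cells, a rise not called under median scaling.

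**Figure D4:**
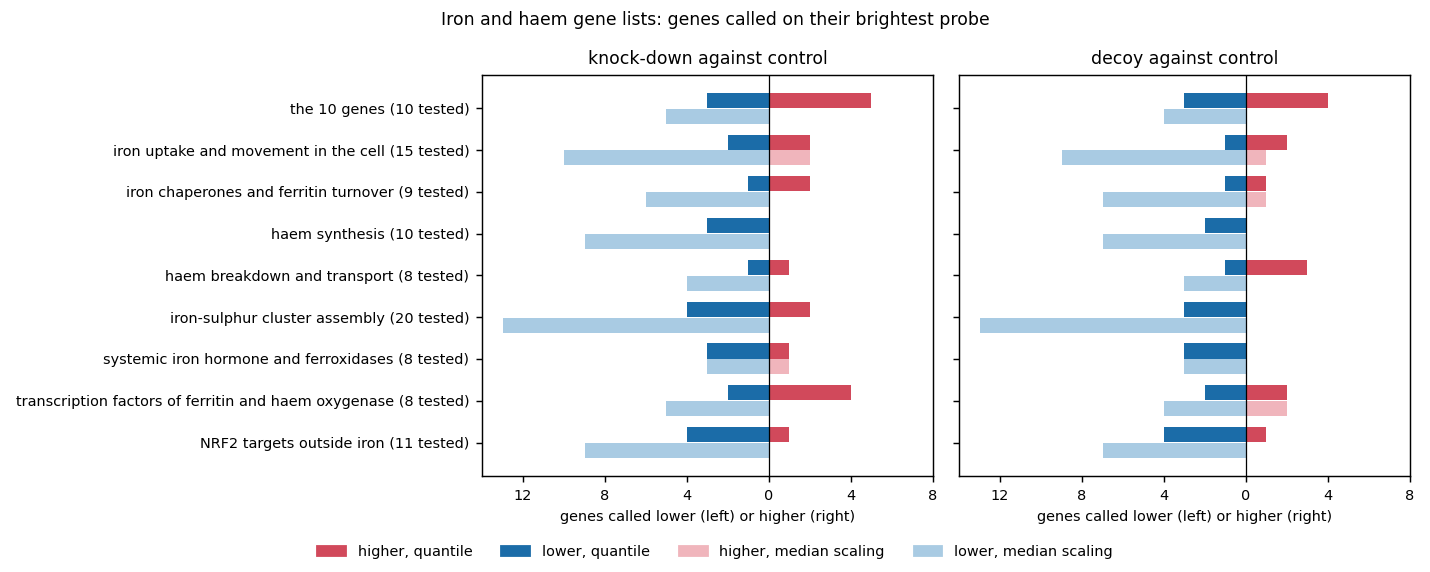
Number of genes called lower (left of 0) or higher (right of 0) on their brightest tested probe, for the 10 member genes and 8 lists, in knock-down cells against control and the decoy against control; dark bars are quantile normalization and pale bars median scaling. Under median scaling the pale bars run mostly to the left, with 13 of 20 iron-sulphur cluster genes called lower in each comparison. On that scale 48.6% (knock-down) and 43.5% (decoy) of all probes were called lower. The share over genes by brightest probe was not counted on that scale, where the median gene moved by -0.48 and -0.43.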

How the data were processed

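RNA from 9 samples was hybridised to Illumina mouse arrays. The deposited raw table holds probe intensity values without background subtraction, detection p-values or control probes, as the values show; 2042 blank rows were dropped. The authors also deposited log2 values with nearly equal quantiles; the submitters' processing notes name R 2.9.1, and how these values were normalized is not given in the sources at hand. Raw intensities were corrected with normexp (offset 50) and quantile-normalized in limma 3.58.1 (R 4.3.3). Symbols came from the platform annotation (34885 probes with 1 symbol, 18 with several, 10378 with none). Each of 27062 tested probes entered a linear model over 9 arrays with 3 group means (lmFit, eBayes, two-sided, Benjamini-Hochberg). The background limit lay 3 SD, taken from the lower side, above the most frequent log2 signal of each array. Where a group was above it on no array, a fold is "at least": the brighter mean is set over a floor averaged across the dim arrays, which on each is the dimmest signal over the limit, or the probe itself if higher. A bright group saturated on all arrays also gives "at least". The number of arrays limits the precision. Members, lists and limits were chosen with earlier results of these data known. Genes named outside the members are the up to 3 called genes of smallest adjusted p per list and comparison with control, and all of a list with up to 4 tested. Deviations of same-numbered samples from different groups had correlations of -0.222 to 0.283. Those of differently numbered samples ranged from -0.295 to 0.391, so the numbers were not taken as pairs. With the knock-down comparison simulated over 27062 probes, 24 of 100 changes of 1.5-fold and 63 of 100 of 2-fold were recovered, with 7 false calls. In that simulation 100 probes of each size were changed, and all groups had the same spread for a probe. In the data 46.5% of probes were called in knock-down cells, so these counts hold for the simulated setting alone.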

Additional observations from a re-analysis of the deposited data

Results flagged for a closer look

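Ftl1 was the 1 member called different between the treated lines. On probe ILMN_1229517 the difference between knock-down and decoy was -0.90 in log2 (limma adjusted p = 0.00437), with 13.28, 13.01 and 12.85 in knock-down cells and 14.12, 13.86 and 13.87 in decoy cells, so that 3 of 3 knock-down arrays lay below all decoy arrays. The adjusted p was 0.000889 to 0.0356 under the 20 alternatives that kept the call, and 0.233 and 0.366 under median scaling and without normalization.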

How the results depend on the processing

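The falls of Ftl1 ILMN_1229517 and Aco1 were called in both comparisons with control under every alternative run, and so was that of Ireb2 ILMN_1225719 wherever a value could be had. The counts of member probes were less stable. In knock-down cells the member probes were 0 higher and 12 lower under median scaling and without normalization, 8 called (5 higher, 3 lower) with the brightest probe per gene and 4 (1 and 3) with the mean of its probes, both of which hold 10 genes in place of 20 probes. In decoy cells they were 0 and 9 under median scaling and without normalization, 7 (4 and 3) with the brightest probe and 5 (2 and 3) with the mean. Leaving out 1 array gave 11 to 16 called in knock-down cells (6 to 8 higher, 5 to 8 lower) and 9 to 12 in decoy cells (6 to 7 higher, 3 to 5 lower, with 3 without any 1 of the control arrays or decoy replicate 2). Between knock-down and decoy it was 1 to 3, with 3 without knock-down replicate 1 or decoy replicate 3 (0 to 1 higher, 1 to 2 lower), 0 under median scaling and without normalization, and 2 (1 higher, Slc11a2 ILMN_2665063) without background correction and with the authors' values. The cause was not tested. Over all probes the knock-down had 9651 to 13283 calls without 1 array and 8376 with gene means (fewer features), and the decoy had 6232 to 10410 and 14012 without normalization. Knock-down against decoy had 237 to 1921 without 1 array (the highest without knock-down replicate 1), 49 under median scaling, 31 without normalization, 382 with an offset of 16, 421 with array weights and 210 with these groups alone. Over all probes 6117 were higher and 6465 lower in knock-down cells, against 2244 and 13157 under median scaling. For the decoy these were 4344 and 4926, against 1898 and 11784. With the replicate block, which the samples do not bear out as a pairing, 12337, 8961 and 618 probes were called in the 3 comparisons, and 14, 12 and 1 member probes.

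Against control, signs turned under median scaling and, given second, without normalization. In knock-down cells these were Fth1 ILMN_2876071 (-0.51 and -0.61), Slc40a1 (-1.12 and -1.21), Tfrc ILMN_2619848 (-0.021 and -0.11) and ILMN_2860804 (-0.56 and -0.65), and Slc11a1 ILMN_2675811 (-0.54 and -0.63), ILMN_2674884 (-0.32 and -0.41) and ILMN_2692797 (-0.35 and -0.44). The others were Slc11a2 ILMN_2665063 (-0.77 and -0.86, and -0.010 with the mean of its probes), Ireb2 ILMN_3161612 (-0.076 and -0.17) and Fbxl5 ILMN_1238032 (-0.42 and -0.51). In decoy cells they were Slc40a1 (-0.36 and -0.46), Tfrc ILMN_2860804 (-0.15 and -0.25), Slc11a1 ILMN_2674884 (-0.33 and -0.43) and ILMN_2692797 (-0.25 and -0.35), Slc11a2 ILMN_1243129 (-0.77 and -0.87), Ireb2 ILMN_3161612 (-0.18 and -0.28) and Fbxl5 ILMN_1238032 (-0.28 and -0.38). Slc11a1 ILMN_2675811 (-0.48 and -0.58) and Fth1 ILMN_2876071 (-0.059 and -0.16) and ILMN_2876066 (-0.11 and -0.21) turned in decoy cells too, uncalled on each of these scales. Saturation limits Ftl1 and Fth1, and background limits Aco1 and the dim probes of Slc11a2 and Fbxl5.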
